A study of Mus musculus with 16 samples.

Results

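The effect of losing Dlgap3 (Sapap3) on the mouse striatum was measured over both viruses that the animals had received, as the mean of the genotype change with tdTomato and the genotype change with hM4Di. All 16 of the 16 libraries of the series entered, 8 from knockout mice and 8 from wild-type mice. Bulk RNA was sequenced from whole striatum, 4 libraries in each group, which the series describes as 4 mice. The groups were KO_tdT (Sapap3 knockout, adeno-associated virus for the fluorescent protein tdTomato in astrocytes), KO_hM4D (Sapap3 knockout, virus for the Gi-coupled designer receptor hM4Di in astrocytes), WT_tdT (wild type, tdTomato) and WT_hM4D (wild type, hM4Di). Mice of every group, controls included, had virus injected into the striatum and received DCZ (deschloroclozapine), the agonist of hM4Di. No group was without virus or without DCZ, so the genotype effect was measured only in their presence. The labels used here give no strain background, sex, age, allele design or viral promoter.

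Dlgap3 encodes a scaffold protein of excitatory postsynaptic densities that links Dlg proteins such as PSD-95 to Shank proteins, and it is expressed strongly in the striatum. Mice that lack it groom compulsively and are used as a model of obsessive-compulsive disorder. Striatal tissue is made up mainly of projection neurons of the direct and indirect pathways, with interneurons and glia, and bulk RNA adds up all of these. In such RNA, fewer cells of a type and less RNA per cell cannot be told apart.

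Libraries held 129149745 to 180655067 counts, of which 10.05 to 12.3% came from the mitochondrial genome. Defining markers of striatal projection neurons were abundant in every library: Drd1, the dopamine D1 receptor, had 158.5 to 331.5 CPM (counts scaled to library size) in knockouts and 159.2 to 293.3 CPM in wild types. KO_tdT 4 stood apart from the other knockout libraries. On the first principal component, which held 29.6% of the variance, it lay at -23.11, against 1.49 to 20.24 for the other 7 knockout libraries and -15.85 to 11.10 for the wild types. It also had the highest mean level of projection neuron and myelin genes among knockouts, and the lowest of cortical genes. Transcripts of the female gene Xist and of Y-linked genes were unevenly spread over the groups. All 4 KO_hM4D libraries held Xist (30.49 to 46.84 CPM) and almost no Y-linked transcripts (0.01119 to 0.09493 CPM), while 3 of 4 WT_hM4D libraries held Y-linked transcripts at 128.5 to 142.3 CPM. KO_tdT 3, WT_hM4D 2, WT_hM4D 4 and WT_tdT 4 held both kinds, each at 5% or more of the highest library, and KO_tdT 4 held 28.22 CPM of Xist with 7.23 CPM of Y-linked transcripts. KO_tdT 1 and KO_tdT 2 held 0 CPM of Xist, but smaller amounts lay beside Y-linked transcripts in WT_hM4D 1 (1.957 CPM), WT_tdT 3 (1.954), WT_hM4D 3 (1.234) and WT_tdT 2 (0.6179). Whether these libraries, KO_tdT 4 and those at 5% or more stand for 1 mouse each is therefore uncertain. The part of sex in the genotype results was not tested beyond the alternatives named below.

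The targeted gene separated the genotypes. Dlgap3 (ENSMUSG00000042388, GRCm38 chromosome 4, 127169204 to 127237022, plus strand) had 157, 162, 157 and 164 CPM in KO_tdT and 167, 165, 153 and 153 CPM in KO_hM4D, against 437, 294, 369 and 401 CPM in WT_tdT and 430, 414, 377 and 346 CPM in WT_hM4D. All 8 knockout libraries were lower than all 8 wild-type libraries, and the 8 knockout libraries were close to one another. The log2 change was -1.26 (SE 0.068, edgeR quasi-likelihood adjusted p = 5.07e-08), which left knockouts at 41.7% of the wild-type mean. The change was alike with tdTomato (-1.23) and with hM4Di (-1.30), and the unadjusted p of their difference was 0.628. Counts over the whole gene do not show which exons were deleted, and those the knockouts retained were not assigned to a part of the gene.

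Over both viruses 16 of 20825 genes tested were called at an adjusted p under 0.05 (0.0768%), Dlgap3 among them. In knockouts 4 genes were higher (0.0192%) and 12 lower (0.0576%). Outside Dlgap3 itself they fell into 3 kinds: genes near Dlgap3 on chromosome 4, the early genes Fos and Btg2, and a few scattered genes, among them a pseudogene of the histone deacetylase gene Hdac1. An unadjusted p under 0.05 was reached by 2919 genes (14%), 1265 higher (6.07%) and 1654 lower (7.94%) in knockouts. DESeq2 called 192 of the 19960 genes it could adjust (0.962%), 82 higher and 110 lower. Without KO_tdT 4 edgeR called 163 (0.772%), 55 higher (0.261%) and 108 lower (0.512%), while leaving out any 1 of KO_hM4D 1, KO_hM4D 2, KO_hM4D 4, KO_tdT 1, KO_tdT 2, WT_hM4D 1, WT_hM4D 3 or WT_tdT 4 left 7 to 10. Without the 4 libraries that held both Xist and Y-linked transcripts, only Dlgap3 was called (0.00469%), and when KO_tdT 4 was also left out, 772 genes were (341 higher, 431 lower), among them 15 of the 16.

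**Figure D1:**
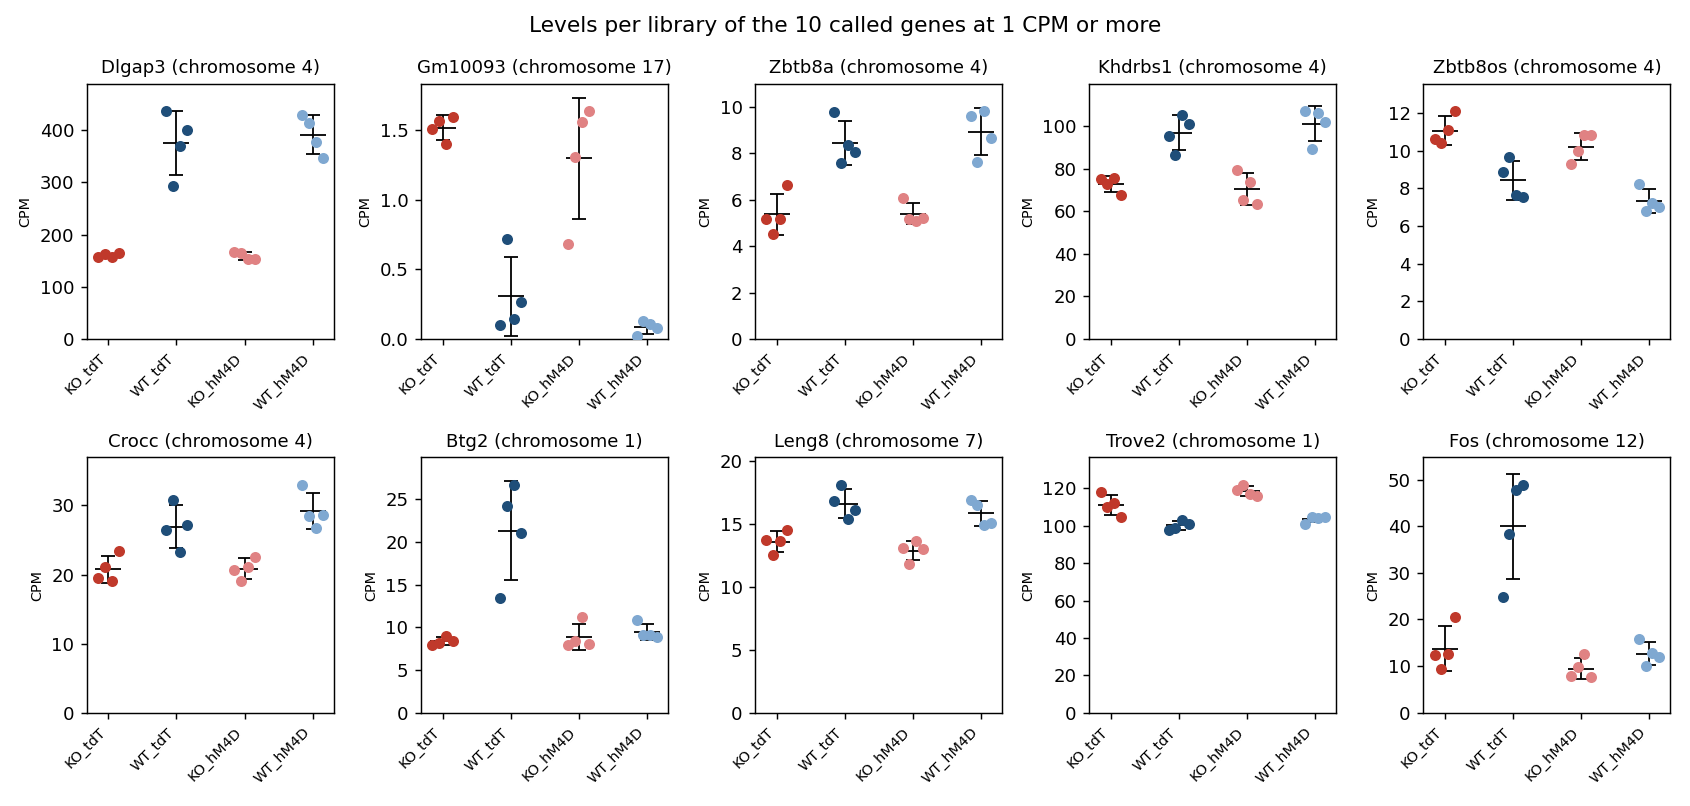
CPM per library of the 10 called genes that reached a mean of 1 CPM in a genotype, for KO_tdT, WT_tdT, KO_hM4D and WT_hM4D (points are libraries, n = 4 a group; lines are the mean ± SD; axes start at 0). Knockout and wild-type points do not overlap for Dlgap3, Zbtb8a, Khdrbs1, Leng8 and Trove2, and for Fos and Btg2 the WT_tdT group stands above the other 3.

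Genes close to Dlgap3 made up 7 of the 15 other calls. Of 156 genes tested within 5 Mb of it, 7 were called (4.49%), against 6 of 19550 on other chromosomes (0.0307%). The rate was 1.92% among 52 genes within 2 Mb and 5.77% among 104 genes at 2 to 5 Mb. None of 179 genes at 5 to 10 Mb was called by edgeR, and DESeq2 called 2 of them, against 0.962% of all genes. An unadjusted p under 0.05 was reached by 26 of the 179 (14.5%), near the 14% of all genes. All 7 genes lay on the side of higher coordinates, 0.76 to 2.86 Mb from the start of Dlgap3. Of them Zbtb8os and Spocd1 were higher in knockouts, and Zbtb8a, Khdrbs1, Dcdc2b, CK137956 and Gm12963 were lower. The labels do not say whether this stretch of chromosome 4 comes from another strain in knockouts, and effects of the missing protein and of the surrounding DNA cannot be told apart here.

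**Figure D2:**
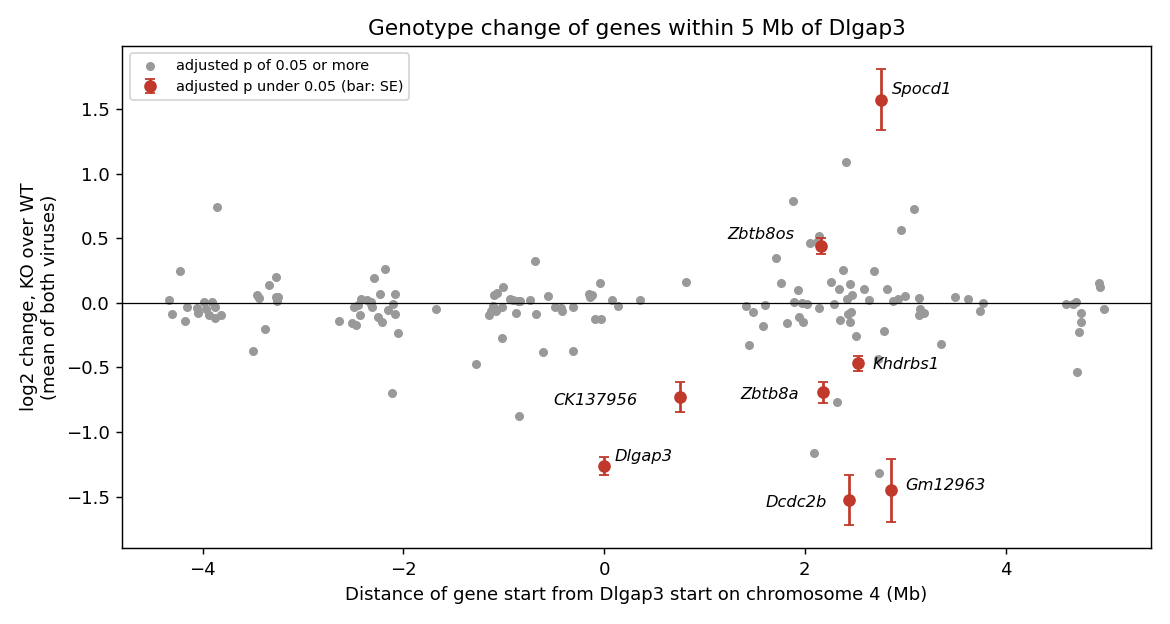
Log2 change in knockouts over wild types, as the mean of both viruses, of each gene tested within 5 Mb of Dlgap3, against the distance of its start from that of Dlgap3 in Mb (grey, adjusted p of 0.05 or more; red, under 0.05, with SE). The 7 called neighbours lie between 0.76 and 2.86 Mb on 1 side, 5 of them below 0 and 2 above.

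Khdrbs1 encodes Sam68, an RNA-binding protein that regulates splicing (ENSMUSG00000028790, chromosome 4, 129703164 to 129742303, minus strand). It had 75.2, 72.9, 75.7 and 67.5 CPM in KO_tdT and 79.1, 65.2, 73.8 and 63.2 CPM in KO_hM4D, against 95.3, 86.2, 105 and 101 CPM in WT_tdT and 107, 89.3, 106 and 102 CPM in WT_hM4D. All knockout libraries were lower than all wild-type libraries. Its log2 change was -0.47 (SE 0.057, adjusted p = 0.00188), with -0.41 for tdTomato and -0.52 for hM4Di.

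Zbtb8a, a gene of a BTB domain zinc finger protein (ENSMUSG00000028807, 129353628 to 129378116, minus strand), had 5.18, 4.54, 5.16 and 6.62 CPM in KO_tdT and 6.09, 5.19, 5.09 and 5.23 CPM in KO_hM4D, against 9.78, 7.59, 8.36 and 8.07 CPM in WT_tdT and 9.62, 7.64, 9.83 and 8.68 CPM in WT_hM4D. The genotypes did not overlap. Its log2 change was -0.69 (SE 0.081, adjusted p = 0.00165). Zbtb8os encodes archease, a cofactor of the ligase that joins tRNA exons (ENSMUSG00000057572, 129335695 to 129354547, plus strand). It had 10.6, 10.4, 11.1 and 12.1 CPM in KO_tdT and 9.3, 9.96, 10.8 and 10.8 CPM in KO_hM4D, against 8.86, 9.67, 7.62 and 7.53 CPM in WT_tdT and 8.23, 6.78, 7.23 and 6.98 CPM in WT_hM4D. Only WT_tdT 2 reached into the knockout range. Its log2 change was 0.44 (SE 0.063, adjusted p = 0.0105). Zbtb8a and Zbtb8os overlap by 920 bases on opposite strands, and since the strand setting of the counting is not given, reads from that overlap cannot be told apart. Their values moved in opposite directions.

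The other 4 neighbours had low counts. Dcdc2b, of the doublecortin domain family, ranged from 0.1097 to 0.424 CPM with a median of 0.1903 in knockouts, and from 0.4273 to 0.7528 with a median of 0.6506 in wild types. Its groups did not overlap, but KO_hM4D 1 and WT_tdT 2 almost met (log2 change -1.53, SE 0.197, adjusted p = 0.00331). Tmem234, with 52.3 CPM in knockouts and 55.6 CPM in wild types, lies across the whole of Dcdc2b on the other strand. Whether reads of Tmem234 entered the counts of Dcdc2b was not tested. Spocd1, known in mice for DNA methylation in the male germline, ranged from 0.3797 to 0.7675 CPM (median 0.4628) in knockouts and from 0.09057 to 0.4076 CPM (median 0.156) in wild types. Its log2 change was 1.57 (SE 0.238, adjusted p = 0.0155), and WT_tdT 2 was the wild-type library that reached the knockout range. CK137956 changed by -0.73 (SE 0.116, adjusted p = 0.023) and the antisense transcript Gm12963 by -1.45 (SE 0.242, adjusted p = 0.0267), with knockouts at 0.2975 to 0.5149 and 0.1044 to 0.424 CPM, against 0.4869 to 0.763 and 0.3082 to 0.683 CPM in wild types. Both overlapped between genotypes. Fam167b (0.4593 to 0.6307 CPM in knockouts, 0.1228 to 0.3813 CPM in wild types, adjusted p = 0.0694) and Gm12976 (0.02984 to 0.08955 and 0.1052 to 0.2041 CPM, adjusted p = 0.0739), named after their values were seen, lie at 2.41 and 2.09 Mb and did not overlap either, without passing the test. Over all genes tested, 17 had genotypes that did not overlap (0.0816%), 5 higher (0.024%) and 12 lower (0.0576%) in knockouts, and 6 of the 17 lay on chromosome 4 within 5 Mb, counting Dlgap3.

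At these genes WT_tdT 2 and KO_hM4D 1 stood nearest to the other genotype. Over the 7 neighbours, Dlgap3 and Gm10093, chosen after their values were seen, KO_hM4D 1 was the knockout library nearest the wild types in 7 of 9, and WT_tdT 2 the wild-type library nearest the knockouts in 7 of 9. Khdrbs1, for example, had 79.1 CPM in KO_hM4D 1, against 63.2 to 75.7 CPM in the other knockout libraries, and 86.2 CPM in WT_tdT 2, against 89.3 to 107 CPM in the other wild-type libraries. Dlgap3 still placed both with their labels. Without both libraries, a choice made after seeing the data, 15 genes were called, 7 higher and 8 lower, and 10 of the 16 were among them.

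The highest fold change among called genes belonged to Gm10093 (ENSMUSG00000061062, chromosome 17, 78491582 to 78493025, plus strand), a processed pseudogene that RefSeq names Hdac1-ps. It had 1.51, 1.57, 1.4 and 1.6 CPM in KO_tdT and 0.683, 1.31, 1.56 and 1.64 CPM in KO_hM4D, against 0.101, 0.717, 0.14 and 0.265 CPM in WT_tdT and 0.021, 0.131, 0.108 and 0.0801 CPM in WT_hM4D. Knockout libraries were higher apart from an overlap between KO_hM4D 1 and WT_tdT 2. The log2 change was 3.12 (SE 0.353, adjusted p = 0.00149), 2.32 with tdTomato and 3.91 with hM4Di. Its parent gene Hdac1 encodes a histone deacetylase and lies on chromosome 4, at 2.35 Mb from Dlgap3. The transcripts matched at 1435 of 1444 aligned bases (99.4%), with 9 mismatches and 0 gaps. Gm10093 also matched AC125456.1 (96.47% over 1444 bases) and Gm4864 (94.6% over 1462 bases), which were not compared at the mismatches. The stretch of 60 coding bases with the most mismatches between Hdac1 and Gm10093 is shown from GENCODE M21, since such bases tell their reads apart. Capitals mark its 5 mismatches (Hdac1 transcript positions 507 to 566).
Hdac1: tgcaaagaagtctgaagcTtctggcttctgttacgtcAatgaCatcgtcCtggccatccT
Gm10093: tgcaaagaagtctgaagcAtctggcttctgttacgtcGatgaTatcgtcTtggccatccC

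Hdac1, named after its values were seen, had 8.9 ± 0.347 CPM in knockouts and 9.74 ± 0.38 CPM in wild types (SD, n = 8 each). Its log2 change of -0.13 (SE 0.035) did not pass the test (adjusted p = 0.21). The sum of Hdac1 and Gm10093 was 10.3 ± 0.45 CPM in knockouts and 9.93 ± 0.531 CPM in wild types, so the sums differed by less than 1 SD. Gm10093 took 7.16 to 16.1% of that sum in knockouts (median 14.9%) and 0.22 to 6.62% in wild types (median 1.23%). Reads of near-identical copies can be split between them by the alignment, so the level of Gm10093 is uncertain, and whether its counts come from chromosome 17 or from chromosome 4 was not tested.

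**Figure D3:**
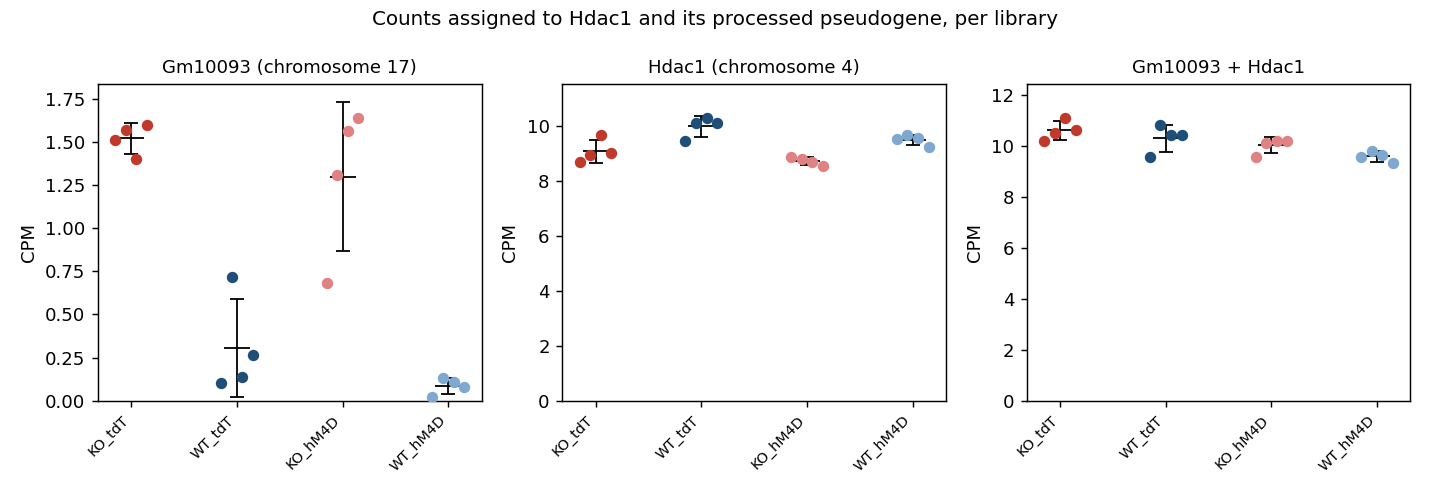
CPM per library of Gm10093, of its parent Hdac1 and of their sum, for KO_tdT, WT_tdT, KO_hM4D and WT_hM4D (points are libraries, n = 4 a group; lines are the mean ± SD; axes start at 0). Gm10093 is near 1.5 CPM in most knockout libraries and under 0.3 CPM in wild types other than WT_tdT 2, and the sums overlap between genotypes.

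A few called genes lay elsewhere. Crocc, which encodes rootletin of the ciliary rootlet, is also on chromosome 4 but at 13.85 Mb (141016637 to 141060550, minus strand). It had 19.5, 21.1, 19 and 23.4 CPM in KO_tdT and 20.7, 19, 21.1 and 22.6 CPM in KO_hM4D, against 26.5, 30.8, 23.3 and 27.2 CPM in WT_tdT and 33, 28.5, 26.8 and 28.6 CPM in WT_hM4D. Only KO_tdT 4 and WT_tdT 3 overlapped (log2 change -0.43, SE 0.063, adjusted p = 0.0115). Leng8, on chromosome 7 (4137039 to 4148177, plus strand), had 11.81 to 14.54 CPM in knockouts (median 13.33) and 14.93 to 18.06 CPM in wild types (median 16.3), with no overlap. Its log2 change was -0.29 (SE 0.047, adjusted p = 0.0235), and 263 of its bases overlap Leng9 on the other strand, which had 5.51 CPM in both genotypes. Trove2 encodes the Ro60 protein, which binds Y RNAs, and lies on chromosome 1 (143750790 to 143777068, minus strand). It had 105.3 to 121.8 CPM in knockouts (median 116.5) and 97.94 to 104.8 CPM in wild types (median 102.0). The genotypes did not overlap, although the log2 change was only 0.17 (SE 0.028, adjusted p = 0.0267). The remaining calls were of Gm10785 (-0.82, SE 0.137, adjusted p = 0.0267), which lies antisense to Cryzl1 on chromosome 16, and of Gm12695 on chromosome 4 (-1.59, SE 0.282, adjusted p = 0.0482). Both had 0.5314 CPM or less in every library and are named here although their levels fall below the limit set for naming. Cryzl1 had 34.3 CPM in both genotypes, and whether its reads entered the counts of Gm10785 was not tested.

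These scattered calls varied with the libraries used. With 1 library left out at a time, Crocc and Gm10093 were called 16 of 16 times, as were Dlgap3, Zbtb8a, Khdrbs1, Dcdc2b and Zbtb8os. Leng8 was called 6 of 16 times (without KO_hM4D 3, KO_tdT 4, WT_hM4D 2, WT_hM4D 3, WT_hM4D 4 or WT_tdT 3). Trove2 was called 3 of 16 times (without KO_tdT 4, WT_hM4D 2 or WT_tdT 3), as was Gm10785 without the same libraries, and Gm12695 was also called 3 times (without KO_tdT 1, KO_tdT 4 or WT_tdT 3). Near Dlgap3, Spocd1 was called 14 times, losing the call without WT_hM4D 3 or WT_tdT 4. CK137956 was called 9 times, losing it without KO_hM4D 1, KO_hM4D 2, KO_tdT 1, KO_tdT 2, KO_tdT 3, WT_hM4D 3 or WT_tdT 4. Gm12963 was called 5 times, without KO_hM4D 1, KO_tdT 4, WT_hM4D 2, WT_hM4D 4 or WT_tdT 2. Over all 26 alternatives no called gene that could be fitted changed its direction, and adjusted p ran from 5.17e-65 to 0.000326 for Dlgap3, 1.93e-12 to 0.0574 for Zbtb8a and 2.24e-06 to 0.241 for Trove2.

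Early genes were the other group with called members. Immediate early genes are switched on within minutes of neuronal activity, without new protein synthesis, and many encode transcription factors. Of 34 tested, 0 were called higher and 2 lower, Fos and Btg2. The median log2 change was -0.30, against -0.004 over all genes, and 5 of the 34 values were positive, against 48.5% of all genes. An unadjusted p under 0.05 was reached by 17 of them, all lower, against 7.94% of all genes that were lower at that level. The median was -0.48 with tdTomato and -0.05 with hM4Di.

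Fos, which forms the AP-1 transcription factor with Jun proteins (ENSMUSG00000021250, chromosome 12, 85473890 to 85477273, plus strand), had 12.3, 9.38, 12.6 and 20.6 CPM in KO_tdT, against 24.8, 38.3, 47.8 and 48.9 CPM in WT_tdT. With hM4Di it had 7.95, 9.7, 12.5 and 7.56 CPM in KO_hM4D, against 15.9, 9.99, 12.7 and 12 CPM in WT_hM4D. Groups with tdTomato did not overlap and groups with hM4Di did. The log2 change over both viruses was -0.98 (SE 0.172, adjusted p = 0.0453), -1.54 with tdTomato (adjusted p = 0.0279) and -0.42 with hM4Di (adjusted p = 0.476). The call was held in 4 of 16 fits with 1 library left out (without KO_hM4D 3, KO_tdT 4, WT_hM4D 2 or WT_tdT 1) and in 8 of 26 alternatives in all, with adjusted p from 0.000429 to 0.241.

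Btg2, an antiproliferative early gene (ENSMUSG00000020423, chromosome 1, 134075170 to 134079120, minus strand), had 7.98, 8.17, 9.02 and 8.45 CPM in KO_tdT, against 13.4, 24.2, 26.7 and 21 CPM in WT_tdT. With hM4Di it had 7.92, 8.4, 11.2 and 8.02 CPM in KO_hM4D, against 10.8, 9.11, 9.09 and 8.82 CPM in WT_hM4D. As for Fos, the genotypes separated with tdTomato and overlapped with hM4Di. The log2 change over both viruses was -0.72 (SE 0.115, adjusted p = 0.0232), -1.34 with tdTomato and -0.09 with hM4Di. The unadjusted p of the difference between the viruses was 5.08e-05 for Btg2 and 0.00481 for Fos, and neither passed adjustment over all genes. The call was held without KO_hM4D 3, KO_tdT 3, KO_tdT 4, WT_hM4D 2, WT_hM4D 4, WT_tdT 1 or WT_tdT 3, that is in 7 of 16 such fits. It was held in 13 of 26 alternatives in all, with adjusted p from 2.24e-06 to 0.219, and lost with the additive model, with Xist as a covariate and without the libraries that held both Xist and Y-linked transcripts.

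Across the list the mean log2 level (log2 of CPM plus 0.5, averaged over the 34 genes) was 4.09, 3.96, 3.90 and 4.37 in KO_tdT and 3.91, 4.10, 4.07 and 3.95 in KO_hM4D, against 4.42, 4.56, 4.71 and 4.86 in WT_tdT and 4.12, 4.07, 4.08 and 3.95 in WT_hM4D. The highest knockout library was KO_tdT 4, and WT_tdT held the 4 highest libraries of all. Without KO_tdT 4, 12 of the 34 genes were called, all lower, where 108 of 21107 genes in all (0.512%) were called lower, and the median was -0.32. These 12, which other than Fos and Btg2 are named after their values were seen, were Fos, Btg2, Junb, Egr1, Egr2, Egr4, Nr4a1, Dusp1, Cyr61, Sik1, Csrnp1 and Apold1. Junb, a partner of Fos in AP-1, had -0.86 in that fit and -0.69 (adjusted p = 0.124) with all libraries. Egr2, a zinc finger transcription factor, had -1.54 without KO_tdT 4 and -1.19 (adjusted p = 0.163) with all libraries.

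Many early genes respond to CREB, which binds the cAMP response element, and to serum response factor, which binds the CArG box. The 250 bases before the RefSeq starts of Fos (chr12:85473640-85473889, plus strand) and Btg2 (chr1:134079156-134079405, minus strand) are shown on GRCm38.p6 because these were the 2 called members. Capitals mark each match to TGACG, the core of the cAMP response element, on either strand.
Fos: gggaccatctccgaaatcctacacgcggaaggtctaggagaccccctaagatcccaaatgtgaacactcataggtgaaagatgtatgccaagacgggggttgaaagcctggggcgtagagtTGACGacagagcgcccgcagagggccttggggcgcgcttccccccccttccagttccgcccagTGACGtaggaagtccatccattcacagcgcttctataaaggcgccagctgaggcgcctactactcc
Btg2: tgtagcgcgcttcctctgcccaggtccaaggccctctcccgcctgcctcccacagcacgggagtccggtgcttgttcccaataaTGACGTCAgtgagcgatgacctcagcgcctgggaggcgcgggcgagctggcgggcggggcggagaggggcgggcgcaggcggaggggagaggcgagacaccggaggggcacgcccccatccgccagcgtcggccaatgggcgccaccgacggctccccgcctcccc
In windows of 300 bases, which end 50 bases after the start, each promoter held 2 matches, those of Btg2 overlapping in the palindrome TGACGTCA, and 0 CArG boxes. Matches to TGACG were present in 18 of 26 immediate early genes that had a promoter in the table. They were present in 20.8% of 32817 promoters and 23% of 27025 genes. CArG boxes were present in 2 of the 26 genes and in 1.63% of promoters. A match does not show that a factor was bound, and the absence of one speaks only of these windows.

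The average rests on a pair of contrasts that share no library. With tdTomato 8 genes were called, all lower in knockouts (0.0384% of genes tested): Dlgap3, Btg2, Dcdc2b, CK137956, Fos, Dusp1, Csrnp1 and Cyr61. With hM4Di 4 were called (0.0192%): Gm10093 higher (0.0048%), and Dlgap3, Zbtb8a and Khdrbs1 lower (0.0144%). Of these calls, Dusp1, Csrnp1 and Cyr61 were absent from the 16 of the average. Cyr61, a secreted matrix protein named for its call with tdTomato, had a log2 change of -0.69 over both viruses (SE 0.126, adjusted p = 0.0563), and Dusp1, a phosphatase of MAP kinases, had -0.42 (SE 0.093, adjusted p = 0.155). No gene was called for a difference between the contrasts by edgeR (0%). DESeq2 called 13 for it, and 1410 genes (6.77%) reached an unadjusted p under 0.05. The smallest p of that test were those of Dusp1 (4.14e-05), Btg2 (5.08e-05) and Csrnp1 (5.87e-05), with an adjusted p of 0.407 each.

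Across all 20825 genes, which are not independent replicates, Pearson's r between the log2 changes with tdTomato and with hM4Di was 0.108, and 57.9% of genes had the same sign. An unadjusted p under 0.05 was reached by 1810 genes with tdTomato (8.69%) and by 2636 with hM4Di (12.7%). Of the 1810, 1178 (65.1%) had the same sign with hM4Di. Genes at that level in both contrasts numbered 240. They were 13.3% of the tdTomato list, near the 12.7% of all genes at that level with hM4Di. They were also 9.1% of the hM4Di list, near the 8.69% of all genes with tdTomato. Of the 240, 200 had the same sign and 40 opposite signs. Leaving out the genes of chromosome 4 within 10 Mb of Dlgap3 gave an r of 0.101. The called genes near Dlgap3 had the same sign with both viruses, as did the other called genes. Since genes were called on the mean of both contrasts, the choice itself favors such agreement.

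**Figure D4:**
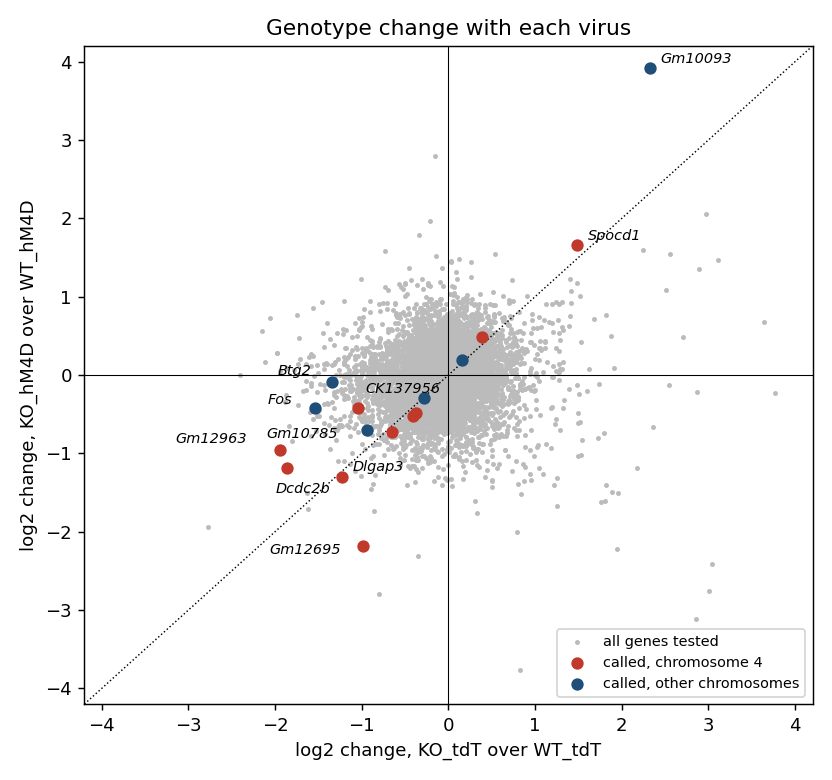
Log2 change of KO_hM4D over WT_hM4D against that of KO_tdT over WT_tdT for the genes tested (grey), with the 16 genes called in the average in color (red, chromosome 4; blue, other chromosomes; dotted line, equal changes). The axes end at 4.2 on either side and 8 genes lie outside them. Dlgap3, Zbtb8a, Khdrbs1 and Zbtb8os lie close to the line, Gm10093 lies above it, and Fos and Btg2 lie far to the left with hM4Di changes near -0.4 and -0.1.

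Among scaffolds of the postsynaptic density, the family to which Dlgap3 belongs, Dlgap3 was the only one of 26 genes called. The other members had values on both sides of 0, with a median over the list of 0.03. Of the 26, 6 were higher at an unadjusted p under 0.05, against 6.07% of all genes, and 1, Dlgap3, was lower. The next 3 genes are named after their values were seen. Shank1, whose protein binds the Dlgap proteins, had a log2 change of 0.41 (SE 0.152, adjusted p = 0.27) and averaged 136 CPM in knockouts and 102 CPM in wild types. Shank3, whose loss in mice also causes overgrooming, had 0.12 (SE 0.041, adjusted p = 0.237), and Dlgap1, a paralog of Dlgap3, had 0.15 (SE 0.134, adjusted p = 0.612). Glutamate receptor genes (32 tested) and GABA genes (21 tested) had no called member and medians of 0.02 and 0.01. Over all genes 0.0768% were called, so lists of such size, here and below, would rarely hold a call. The smallest p among glutamate receptors was that of Grm2, a presynaptic metabotropic receptor, which ranged from 10.41 to 33.71 CPM in knockouts and from 8.746 to 25.1 CPM in wild types (log2 change 0.54, SE 0.216, adjusted p = 0.3). Synaptic adhesion genes had a median of 0.09 over 25 tested. Of them 6 were higher and 1 lower at an unadjusted p under 0.05, against 6.07% and 7.94% of all genes. Lrrtm2, a postsynaptic partner of neurexins, had 120.6 to 142.9 CPM in knockouts and 106.8 to 121.6 CPM in wild types (0.16, SE 0.039, adjusted p = 0.202). Among 15 endocannabinoid genes 0 were called, while 4 were higher and 0 lower at an unadjusted p under 0.05. Napepld, which makes N-acylethanolamines, had 0.34 (SE 0.089, adjusted p = 0.209), and without KO_tdT 4 it was called higher (0.40). Serotonin receptor genes had a median of 0.08 over 12 tested.

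Of the 3 lists of projection neuron markers and the list of interneuron markers, 0 genes were called, where 0.0768% of all genes were. All 19 shared markers of projection neurons had a negative log2 change, with a median of -0.21. Of them 5 had an unadjusted p under 0.05, against 7.94% of all genes that were lower at that level. Their mean log2 level was 7.83 to 8.58 in knockouts (median 7.99) and 7.92 to 8.61 in wild types (median 8.32). The genotypes overlapped. The knockout top was KO_tdT 4, and the next highest knockout library, KO_hM4D 1, stood at 8.16. The lowest wild types, WT_hM4D 2 (7.92) and WT_tdT 3 (7.93), lay within the range of the remaining knockout libraries, so the overlap did not rest on KO_tdT 4 alone. Actn2, an actin-binding protein of dendritic spines, had -0.42 (SE 0.159, adjusted p = 0.276), and Arpp21, a cAMP-regulated phosphoprotein, had -0.25 (SE 0.099, adjusted p = 0.294). Medians were -0.12 over 7 direct pathway markers and -0.17 over 9 indirect pathway markers. Without KO_tdT 4 the shared median was -0.32 and the direct pathway median -0.21, and leaving out other single libraries took the direct pathway median to between -0.21 (without WT_hM4D 2) and -0.04 (without WT_tdT 1), moving it by over 1.5 times for 9 of 16 libraries (also KO_hM4D 2, KO_tdT 1, KO_tdT 3, WT_hM4D 1, WT_hM4D 3 and WT_tdT 3). Drd2, the dopamine D2 receptor, had 48.97 to 88.41 CPM in knockouts and 49.17 to 91.54 CPM in wild types. The 16 interneuron markers had a median of -0.005.

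Markers of tissue next to the striatum ran the other way. All 14 cortical excitatory markers had a positive value, with a median of 0.26, 0.03 with tdTomato and 0.50 with hM4Di, and 0.15 without KO_tdT 1. Their mean log2 level was 4.58 to 5.91 in knockouts (median 5.42) and 4.81 to 5.70 in wild types (median 5.04). WT_tdT 3 (5.70) and WT_hM4D 2 (5.65), lowest among wild types for the shared projection neuron markers, were the highest wild types here. Of 20 markers of thalamic, septal and pallidal neurons, 17 were positive, with a median over the list of 0.43. Of the 17, 8 had an unadjusted p under 0.05, against 6.07% of all genes that were higher at that level. The median was 0.19 without KO_hM4D 1 and 0.27 without KO_tdT 3. The level of that list stood at 4.202 in KO_tdT 3, 3.58 in KO_tdT 4 and 4.08 in KO_hM4D 1, and at 2.77 to 3.20 in the other knockouts, against 2.73 to 3.37 in wild types. Shox2, a transcription factor of thalamic neurons, ranged from 0.08912 to 13.84 CPM in knockouts (median 0.7066) and from 0.03163 to 1.41 CPM in wild types (median 0.05258). Slc17a6, the vesicular glutamate transporter of subcortical neurons, ranged from 20.39 to 70.56 CPM in knockouts and from 15.48 to 23.13 CPM in wild types (log2 change 0.84, SE 0.218, adjusted p = 0.209). No member of these lists passed the test, and the part of dissection in the genotype values was not tested.

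All 19 myelin genes had a negative log2 change, with a median of -0.27, -0.14 with tdTomato and -0.41 with hM4Di, and levels of 6.30 to 7.48 in knockouts and 6.68 to 7.37 in wild types on the log2 scale. KO_tdT 4 was the highest of all libraries there. Opalin, a membrane protein of myelin, had 10.08 to 40.84 CPM in knockouts (median 14.65) and 19.33 to 39.38 CPM in wild types (median 28.43), with a log2 change of -0.62 (SE 0.205, adjusted p = 0.239), and without KO_tdT 4 it was called lower (-0.80). Oligodendrocyte precursor markers had a median of -0.13 over 13, and microglia markers had -0.08 over 20, of which 19 were negative. Ependymal markers had -0.26 over 16, endothelial and mural markers -0.06 over 24, and lymphocyte and blood markers -0.12 over the 12 of 20 that passed the filter on low counts.

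Astrocytes, the cells that carried both viruses, had 0 called genes among 23 markers, where 0.0768% of all genes were called. The median was 0.05. Of the 23, 6 were higher at an unadjusted p under 0.05, against 6.07% of all genes, and 0 were lower. Fgfr3, a growth factor receptor of astrocytes, came closest: it had 91.45 to 115.0 CPM in knockouts (median 98.27) and 73.72 to 99.65 CPM in wild types (median 87.88). Its log2 change was 0.24 (SE 0.047, adjusted p = 0.0722), and without KO_tdT 4 it was called higher, at 0.24. Reactive astrocyte genes had a median of -0.12 over 26, 0.01 with tdTomato and -0.24 with hM4Di, and -0.08 without any 1 of KO_tdT 4, WT_hM4D 2 or WT_hM4D 3. Gbp2, an interferon-induced GTPase and marker of reactive astrocytes, had 1.858 to 2.84 CPM in knockouts and 2.658 to 4.795 CPM in wild types (-0.42, SE 0.098, adjusted p = 0.187), and it too was called, lower, without KO_tdT 4 (-0.47). Of 35 genes of actin and cell morphology 0 were called and the median was -0.01. Interferon response genes had a median of -0.12 over 31, of which 28 were negative, with 0.01 for tdTomato and -0.355 for hM4Di. Gbp3 of that list was called lower without KO_tdT 4 (-0.44). The mean log2 level of that list was 1.29 to 1.53 in the 8 knockout libraries, and its 3 highest values were in WT_hM4D (1.63 to 1.96).

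**Figure D5:**
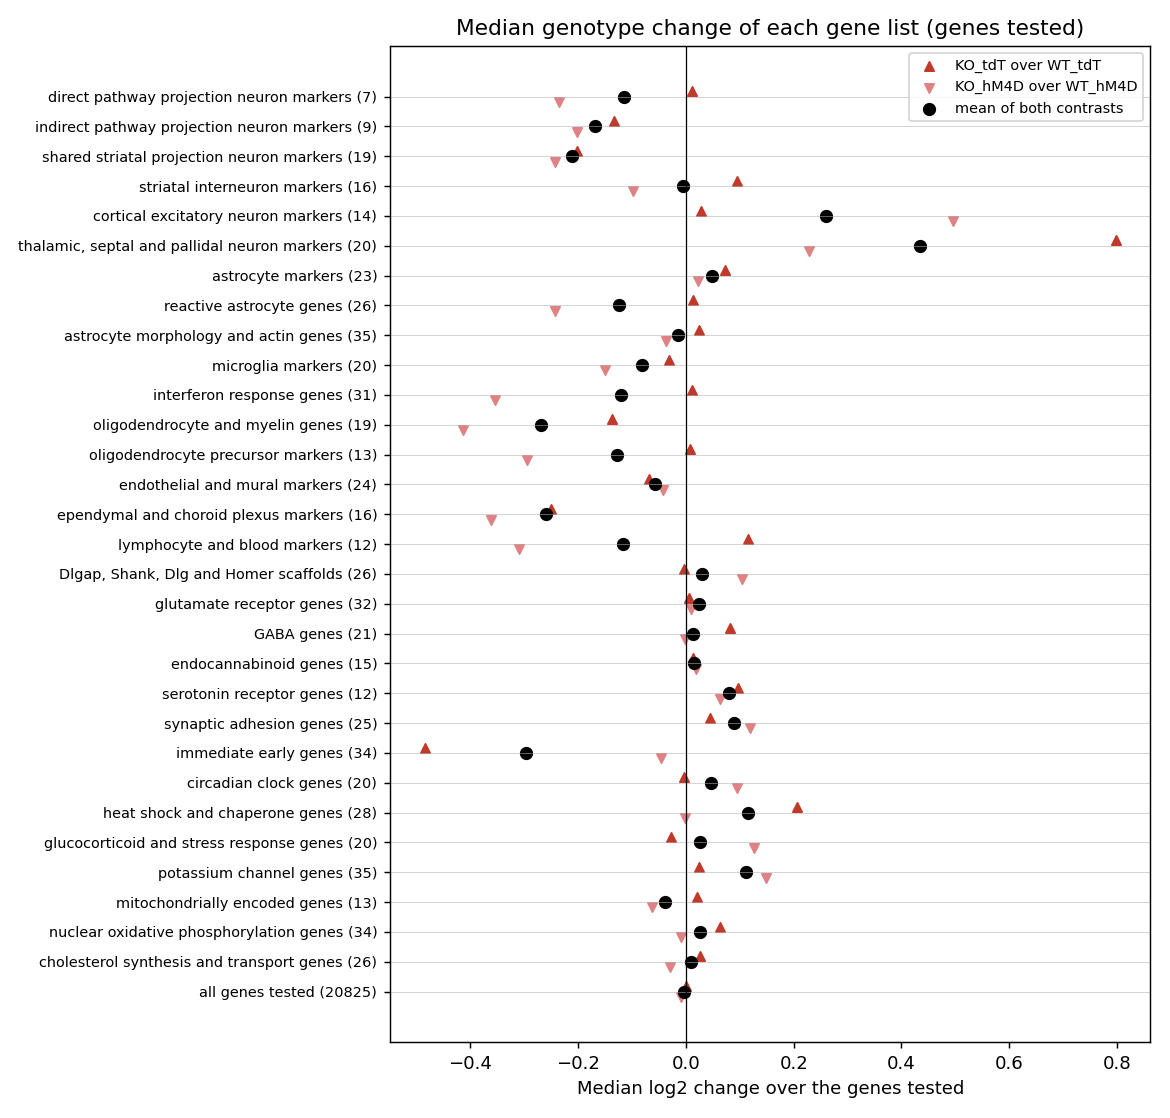
Median log2 change of each gene list over its tested genes (number in brackets), for KO_tdT over WT_tdT (up triangles), KO_hM4D over WT_hM4D (down triangles) and their mean (black circles), with all genes tested at the bottom. Immediate early genes lie at -0.48 with tdTomato and near 0 with hM4Di, cortical markers lie near 0 with tdTomato and at 0.50 with hM4Di, and the shared and indirect pathway projection neuron markers lie below 0 with both.

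Stress and metabolic genes had no called member, where 0.0768% of all genes were called. Of 28 heat shock and chaperone genes, 27 had a positive value, against 48.5% of all genes. An unadjusted p under 0.05 was reached by 12, all higher, against 6.07% of all genes that were higher at that level. The median of that list was 0.12, 0.21 with tdTomato and -0.00 with hM4Di. Hspa1a, an inducible chaperone of the Hsp70 family, had 3.833 to 7.39 CPM in knockouts and 2.689 to 5.806 CPM in wild types (0.49, SE 0.149, adjusted p = 0.22), and Manf, a factor induced by endoplasmic reticulum stress, had 0.23 (SE 0.073, adjusted p = 0.225). Hspa1a has the near-identical copy Hspa1b, between which reads can be split. Clock genes had a median of 0.05 over 20, and without KO_tdT 4 the clock output genes Dbp, named after its values were seen, and Ciart were called lower (-0.35 and -0.49). Glucocorticoid and stress response genes had 0.03 over 20, and Arl4d of that list was called lower without KO_tdT 4 (-0.49). Potassium channel genes had 0.11 over 35 (0.17 without KO_tdT 4). Of them 10 were higher and 3 lower at an unadjusted p under 0.05, against 6.07% and 7.94% of all genes. Medians were -0.04 over 13 mitochondrially encoded genes, 0.03 over 34 nuclear oxidative phosphorylation genes and 0.01 over 26 cholesterol genes.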

How the data were processed

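Per the labels' protocols, column-purified RNA was depleted of ribosomal RNA and made into stranded libraries. The values used are raw read counts, which the authors deposited as 1 table of 48795 genes in 16 libraries. The submitters' processing notes name bcl2fastq 2.17, STAR, HTSeq and the builds GRCm38 and mm10. Versions of STAR and HTSeq, the annotation and the strand setting used in counting are not given. Groups follow the sample titles, which match the genotype fields, although another field of 3 WT_hM4D libraries names the knockout. In a chi-square test over genes, every pair of libraries within a group differed beyond sampling noise (12.3 to 138 per degree of freedom). At this depth such a test cannot show that libraries come from separate mice. Each library was counted as 1 replicate, following the series description.

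Testing used R 4.3.3 and edgeR 4.0.16. filterByExpr by group left 20825 genes, TMM factors scaled the libraries, and 1 quasi-likelihood model had a coefficient per group (12 residual degrees of freedom, biological coefficient of variation 0.127). The contrast was the mean of KO_tdT minus WT_tdT and KO_hM4D minus WT_hM4D. Tests were two-sided. Adjusted p (Benjamini-Hochberg over the genes tested) are from edgeR unless DESeq2 (1.42.0) is named, and genes under 0.05 are those called. The median SE of a log2 change was 0.082, from the spread between libraries, counting noise included. CPM uses TMM factors. Coordinates are from GENCODE M21 on GRCm38, to which 48435 identifiers were matched. Scripts were tested on simulated data.

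The genes named were Dlgap3, called genes that reached 1 CPM on average in either genotype (up to 12 a direction), called list members, called genes that did not overlap between genotypes or lay within 10 Mb of Dlgap3, and up to 3 genes of smallest p in lists without a call and in the interaction. The text gives a selection of these, and genes outside the rule are named as such. The comparison, the 30 gene lists and the tests were chosen with earlier results of these data known. Alternatives were other size factors, DESeq2, other filters, a replicate block, an additive model, Xist as a covariate, and leaving out libraries.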

Additional observations from a re-analysis of the deposited data

Results flagged for a closer look

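In a group of 4 libraries, 1 library was called far from the others when its gap to the nearest took up most of the group's range (Dixon's 95% limit), which chance gives in about 5% of groups. Of 64 groups (16 called genes in 4 groups), 7 had such a library. Zbtb8a stood at 6.09 CPM in KO_hM4D 1, above the other KO_hM4D libraries, and Gm12963 stood at 0.424 CPM in the same library, again above them. Dcdc2b stood at 0.427 CPM in WT_tdT 2, below the other WT_tdT libraries. In these 3 cases the library lay toward the level of the other genotype. Btg2 stood at 11.2 CPM in KO_hM4D 3 and at 10.8 CPM in WT_hM4D 1, each above the rest of its group. Its value in KO_hM4D 3 also lay on the side of the wild types, which averaged 9.463 CPM with hM4Di and 15.39 CPM over both viruses. Trove2 stood at 101 CPM in WT_hM4D 1, and Gm10785 at 0.164 CPM in KO_tdT 1, each below the rest of its group.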

How the results depend on the processing

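Over both viruses, DESeq2 called 192 genes, a filter of at least 1 CPM left 9, leaving out the 4 libraries with both Xist and Y-linked transcripts left 1, and leaving out KO_tdT 4 as well gave 772, an alternative chosen after seeing the data. Leaving out 1 library at a time gave 7 to 163. With tdTomato (8 called) the counts were 58 by DESeq2, 1 without those 4 libraries, 62 without KO_tdT 4 as well and 2 to 32 without 1 library. With hM4Di (4 called) they were 82 by DESeq2, 1 with Xist as a covariate, 1 without the 4 libraries, 1 without KO_tdT 4 as well and 1 to 9 without 1 library. The interaction (0 called) had 13 by DESeq2, 1 without the 4 libraries, 3 without KO_tdT 4 as well and 0 to 4 without 1 library. The cause of these shifts was not tested. Counts stayed within 1.5 times under DESeq2 size factors, without a filter, and with an additive model, although Xist as a covariate kept only 8 of the 16 genes among its 15. The log2 change of the mitochondrial gene mt-Nd4 (-0.05) ran from -0.106 to 0.019 without 1 library, changing sign without WT_hM4D 1.

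The replicate number as a block gave 11 genes over both viruses, 9 of them among the 16, with 9, 4 and 0 for tdTomato, hM4Di and the interaction. CK137956, Leng8, Trove2, Gm12963, Gm10785, Fos and Gm12695 were not among the 11. Same-numbered libraries deviated together in part. With hM4Di, correlations were 0.0911 to 0.287, over 0.1 in 3 of 4 pairs, and 5 of 8 libraries correlated best with their own number. With tdTomato they were -0.181 to 0.108, and 1 of 8 did so. The condition of over 0.1 in every pair was not met, so the samples were not treated as paired. Precision rests on 4 libraries a group and 8 a genotype, and the part of depth in it was not tested. Among calls under 1 CPM, Gm12695 had an SE of 0.282, against a median of 0.082 over all genes. Several list medians near 0 changed sign without 1 library: that of mitochondrially encoded genes ran from -0.10 to 0.03, and that of interneuron markers from -0.06 to 0.03.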
